A study of Mus musculus with 60 samples.

Results

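The 28 genes described here encode the receptors through which GABA and glycine act, their scaffolds and the chloride transporters on which their effect depends. They were chosen by name, and a peak belonged to a gene when the deposited symbol of the peak was that gene's. Of 256375 peaks in 12 lists, 768 were assigned to 21 of the 28 genes, among 16994 symbols in all. Gabra3, Gabra6, Gabre, Gabrq, Gabrr3, Glra2 and Gabarap were named by no peak in any list.

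GABA-A receptors are chloride channels built from several subunits, most often with alpha, beta and gamma subunits, and the alpha and gamma subunits set where the receptor sits and how it responds to benzodiazepines. Receptors with the delta subunit lie outside synapses and carry tonic inhibition, and rho subunits form channels best known from the retina. GABA-B receptors are G-protein coupled dimers of Gabbr1 and Gabbr2, with Kctd proteins as auxiliary subunits that shape their response. Glycine receptors join alpha subunits to the beta subunit Glrb, which binds gephyrin (Gphn), the scaffold of inhibitory synapses. In the hippocampus, excitatory neurons express many of these subunits and receive inhibition through them, while other members are better known from other cells and tissues.

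A pair of histone modifications was mapped by CUT&RUN-seq, in which a nuclease tethered by an antibody releases the DNA around a bound modification. H4K8ac marks active chromatin, and H3K27me3 is laid down by Polycomb at repressed genes. The mice were males carrying Emx1-Cre and the NuTRAP reporter, and nuclei tagged in Emx1-expressing cells, mostly excitatory neurons with few interneurons, were drawn from the hippocampus. Every group carried both alleles. Exercised mice ran on wheels from postnatal day 21 to 41 (early-life exercise, ELE) and sedentary mice did not. Nuclei were isolated together with ribosomes from both hippocampi of a mouse (the SIT arm, 4 samples per mark and condition) or alone from the left or the right hippocampus of different mice (the left and right separate arms, 3 samples each). Each combination of mark, condition and arm has 1 pooled list, so no value below has a replicate or an SD. The methods state that exercised H4K8ac libraries of a high false discovery rate were left out, a single one from SIT and the others from separate isolations, so the exercised H4K8ac lists rest on fewer libraries than the samples given here. Samples of the sedentary group and an exercised animal were also excluded in the combined study of chromatin and mRNA, and fewer mice of both conditions than samples are counted for some peak results, so other lists may rest on fewer libraries too. The split of the excluded separate libraries between left and right was not found in the sources used here, and the part of this in the smaller exercised H4K8ac lists of the separate arms was not tested. Values are given for the SIT, left separate and right separate lists, in that order.

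The lists held between 12168 and 38136 H4K8ac peaks and between 9899 and 25693 H3K27me3 peaks, and the sources give a minimum sequencing depth but not the depth of each library. Exercised H4K8ac lists covered 1.73 times the sequence of the sedentary list in the SIT arm, but 0.391 and 0.437 times in the separate arms. For H3K27me3 these ratios were 1.88, 1.25 and 0.360. Of 6 excitatory neuron markers, between 2 and 4 had an H4K8ac promoter peak in each list, and of 6 inhibitory neuron markers none did. The latter had an H3K27me3 promoter peak for 5 of 6 genes in every list. An H4K8ac peak of any kind was held by between 0 and 2 of the inhibitory markers in each list, and by between 4 and 6 of the excitatory ones. Of the excitatory markers, Prox1 had an H3K27me3 promoter peak in both left separate lists, and 1 or 2 of 6 had an H3K27me3 peak of any kind in each list. Among 4 microglial markers, P2ry12 had an H4K8ac promoter peak in each of the 6 lists, and of 4 astrocyte markers 3 had one in the sedentary left separate list, 1 in the exercised left separate list and none in the others. Of 4 oligodendrocyte markers, 1 or 2 had an H3K27me3 promoter peak in each list. The part of these other cell types in the values below was not tested. Over the 3 arms an exact sign-flip test cannot give a p below 0.25, so no test of exercise was made, and each count stands beside its share over 21728 protein-coding genes. In pooled nuclei, fewer nuclei with a mark and less of the mark per nucleus cannot be told apart.

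Most of the genes carried H4K8ac. By symbol, 18 of 28 were in at least 1 of the 6 H4K8ac lists, beside 52.5% of all protein-coding genes, and 8 of 28 in at least 1 H3K27me3 list, beside 28.3%. In all 6 H4K8ac lists stood Gabra2, Gabra4, Gabrb1, Gabrb2, Gabbr2, Kctd16 and Slc12a5, which is 7 of 28 beside 12.5% of all genes. In all 6 H3K27me3 lists stood Gabrp, Glra1 and Glra3, which is 3 of 28 beside 10.8%. Only Gphn, Kctd16, Glrb, Gabrg3 and Glra3 were named in lists of both marks (5 of 28, beside 15.3%), and 13 genes had H4K8ac alone. Of 639 H4K8ac peaks and 129 H3K27me3 peaks assigned to the genes, 0 overlapped a peak of the other mark in the same condition and arm. Such overlap was rare in the whole lists too, at 0.117 to 0.7001% of H4K8ac peaks and 0.0876 to 1.004% of H3K27me3 peaks, so the 0 says little about these genes.

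The shares differed with gene length. Of 11 members of at least 100 kb, 9 had H4K8ac, where 84.7% of all genes of that length did, and 4 had H3K27me3, where 41.8% did. In all 6 H4K8ac lists were 5 of these 11 members, beside 40.7% of all genes of that length, so the 7 of 28 above is to be read beside that share as well. In all 6 H3K27me3 lists was 1 of the 11, beside 19.2%. The shares also differed by chromosome. The 4 X-linked members Gabra3, Gabre, Gabrq and Glra2 were in none of the 12 lists, and the X chromosome itself held between 1 and 127 peaks of an H4K8ac list, or between 0.00822 and 0.437% of it. Of the protein-coding genes on the X, 17.4% were in any H4K8ac list and 6.01% in any H3K27me3 list, against 54.1% and 29.3% on chromosomes 1 to 19. Of the 24 autosomal members, 18 (75.0%) had H4K8ac and 8 (33.3%) had H3K27me3.

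**Figure D1:**
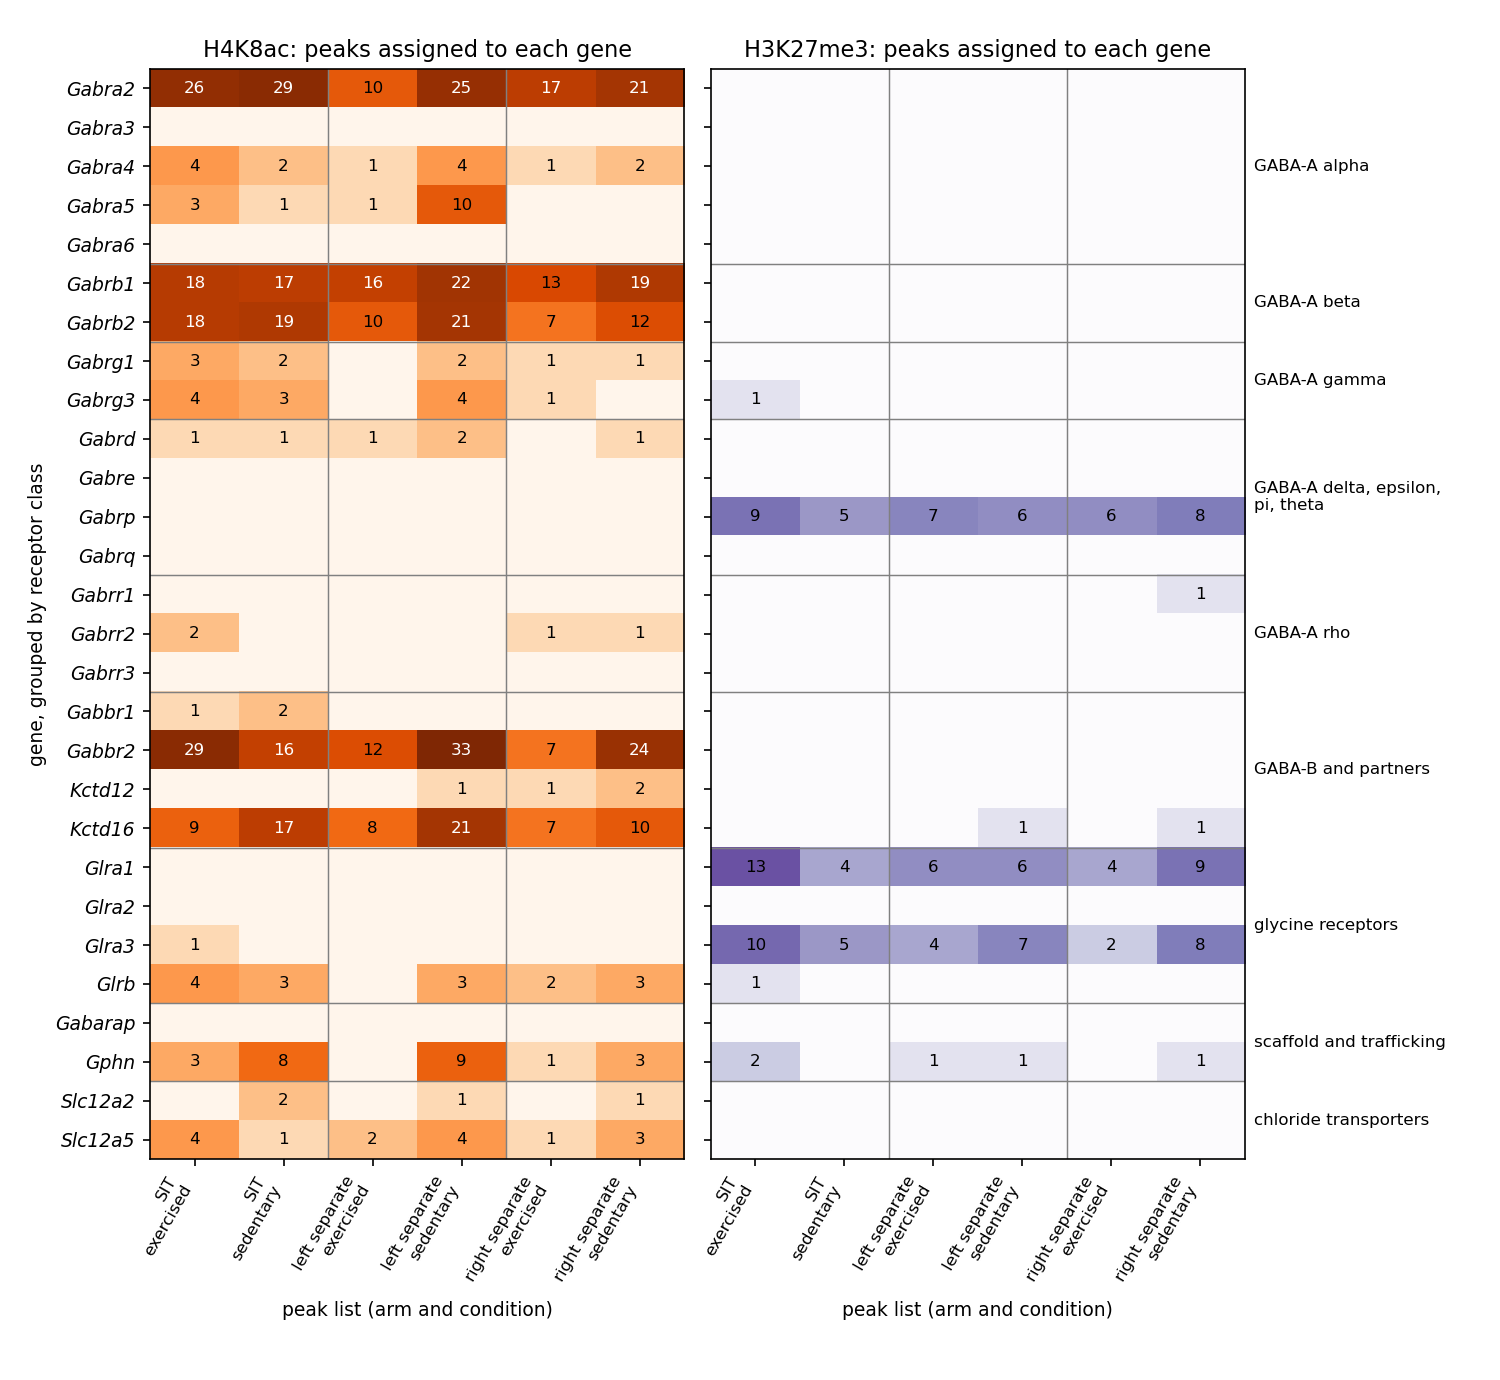
Number of peaks assigned to each of the 28 genes (rows, grouped by receptor class) in each of the 12 lists (columns), with H4K8ac on the left and H3K27me3 on the right and empty cells for 0. Gabra2, Gabrb1, Gabrb2, Gabbr2 and Kctd16 have the darkest H4K8ac rows, and Gabrp, Glra1 and Glra3 are the rows filled in all 6 H3K27me3 lists.

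Among GABA-A alpha subunits, Gabra2 carried the most H4K8ac peaks. Gabra2 (chr5:70957597-71095849, reverse strand, GRCm38) encodes the alpha2 subunit, found at the axon initial segment of pyramidal cells. It held 26, 10 and 17 peaks in the exercised lists and 29, 25 and 21 in the sedentary ones. The gene with 3 kb on either side was under peaks for 43.8, 16.5 and 22.1 kb in the exercised lists and 30.8, 40.02 and 41.5 kb in the sedentary lists, and covered lengths below are measured the same way. The exercised value was the larger in the SIT arm, although that list held fewer Gabra2 peaks, and the smaller in both separate arms, with ratios of 1.42, 0.413 and 0.533 beside 1.73, 0.391 and 0.437 for the whole lists. By share of its length under H4K8ac, between 1.45 and 4.13% of protein-coding genes were covered as much or more, depending on the list. Its start site lay under a peak in 5 of 6 lists, and in the exercised right separate list the nearest peak was 3.75 kb away.

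The RefSeq promoter window of Gabra2, which runs from 250 bases before to 50 after a start site, is shown because it holds the start that H4K8ac covered most often among alpha subunits, with CpG dinucleotides in capitals:
Gabra2 promoter, chr5:71095800-71096099, reverse strand: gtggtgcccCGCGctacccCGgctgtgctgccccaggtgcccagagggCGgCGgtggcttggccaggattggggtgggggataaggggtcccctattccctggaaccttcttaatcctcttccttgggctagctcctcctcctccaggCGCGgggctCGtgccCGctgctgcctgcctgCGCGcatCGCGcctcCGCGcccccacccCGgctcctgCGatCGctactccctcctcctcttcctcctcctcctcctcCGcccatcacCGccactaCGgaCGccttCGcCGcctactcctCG
It holds 25 CpGs with an observed over expected ratio of 0.721, and 27.5% of all 32619 promoter windows reach that ratio.

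H4K8ac at Gabra2 also reached far outside the gene. Of 34 regions made by joining overlapping peaks of the 6 lists, 5 held a peak of every list. They were the region over the start (chr5:71088037-71098538), 2 farther inside the gene (chr5:70984703-70999169 and chr5:71009120-71014562) and 2 upstream in intergenic sequence, 73.2 kb (chr5:71169005-71172506) and 150.3 kb (chr5:71246187-71251423) from the start. In the exercised SIT list a peak of 10294 bp lay over the start, and 0.275% of the peaks of that list were as wide. No base of the start region was shared by all 6 lists, since the peaks there overlapped in a chain, while 1824 bp of the region at 73.2 kb were under a peak in each.

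The other alpha subunits had less. Gabra4, whose product forms extrasynaptic receptors with delta in the dentate gyrus, held 4, 1 and 1 H4K8ac peaks in the exercised lists and 2, 4 and 2 in the sedentary ones. H4K8ac covered 5.98, 3.90 and 6.46 kb of it in the exercised lists and 4.59, 9.53 and 7.83 kb in the sedentary lists. The region with a peak of every list lay in an intron 49.7 kb from the start (chr5:71600663-71608563). Gabra5, the alpha5 subunit of tonic inhibition in pyramidal cells, held 3, 1 and 0 peaks in the exercised lists and 1, 10 and 0 in the sedentary lists. The sedentary left separate list was the high one. Of the 15 peaks 9 overlapped the gene, and the 11 annotated as intronic were placed by the deposited annotation in a transcript of another gene. Gabra6, an alpha subunit of cerebellar granule cells, had no peak of either mark in any list, by symbol or by position. Gabra3 was named by no peak, but an H3K27me3 peak assigned to other symbols covered 2.56 kb, 1.99 kb and 2.43 kb of its introns in the sedentary SIT, exercised left separate and sedentary left separate lists.

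Both beta subunits, which carry part of the GABA binding site, were in every H4K8ac list. Gabrb1 (chr5:71658113-72149037, forward strand) held 18, 16 and 13 peaks in the exercised lists and 17, 22 and 19 in the sedentary lists. Under peaks lay 103, 66.04 and 47.9 kb of it in the exercised lists and 62.1, 88.6 and 76.6 kb in the sedentary lists, and the arms again differed in direction. These amount to ratios of 1.66, 0.745 and 0.626. Many peaks over the gene bore another symbol: of the 38, 29 and 24 peaks overlapping it in the exercised lists, 20, 13 and 11 did. A peak of 13423 bp in an intron of Gabrb1 was the widest of any member in the exercised SIT list, where 0.131% of peaks were as wide. Beside Gabrb1, in the opposite direction, starts Gabra4, with the start sites 195 bp apart. Neither start lay under an H4K8ac peak in any list, and the nearest peak to that of Gabrb1 was 7.25, 41.6 and 44.1 kb away in the exercised lists and 41.5, 2.20 and 11.7 kb in the sedentary lists. A second RefSeq start of Gabrb1 lies within the gene, and its window was under a peak in 5 of 6 lists.

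Both windows are shown, the outer one without and the inner one with H4K8ac, with CpGs in capitals:
Gabrb1 outer promoter, chr5:71657671-71657970, forward strand: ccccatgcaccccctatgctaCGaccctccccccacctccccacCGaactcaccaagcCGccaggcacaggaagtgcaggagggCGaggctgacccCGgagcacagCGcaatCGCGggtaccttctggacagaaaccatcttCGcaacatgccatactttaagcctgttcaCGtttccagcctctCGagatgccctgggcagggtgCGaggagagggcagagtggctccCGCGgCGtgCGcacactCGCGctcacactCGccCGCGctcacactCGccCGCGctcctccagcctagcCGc
Gabrb1 inner promoter, chr5:71699682-71699981, forward strand: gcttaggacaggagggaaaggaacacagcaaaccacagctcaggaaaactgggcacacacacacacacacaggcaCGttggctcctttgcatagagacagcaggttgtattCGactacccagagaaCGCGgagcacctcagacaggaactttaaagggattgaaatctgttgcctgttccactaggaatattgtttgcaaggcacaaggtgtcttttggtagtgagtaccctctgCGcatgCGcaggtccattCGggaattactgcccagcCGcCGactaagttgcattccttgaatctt
The outer window holds 25 CpGs at an observed over expected ratio of 0.805 and the inner window 9 at 0.474, so the window under H4K8ac was the one with fewer CpGs.

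Gabrb2 (chr11:42419757-42629028, forward strand), the beta subunit of many synaptic receptors, held 18, 10 and 7 H4K8ac peaks in the exercised lists and 19, 21 and 12 in the sedentary lists. Under peaks lay 31.1, 17.9 and 9.21 kb of the gene in the exercised lists and 20.1, 28.1 and 18.99 kb in the sedentary lists, or ratios of 1.55, 0.636 and 0.485. Its start site was covered in 4 of 6 lists. Of 29 regions, 2 held a peak of every list, an intronic one (chr11:42526608-42539079) and one in intergenic sequence 24.0 kb upstream (chr11:42386867-42395762). All 6 lists shared 1071 bp of the upstream region, and the 300 bases at the middle of the longest shared stretch are shown as the recurring H4K8ac position of this gene outside a promoter:
Gabrb2 upstream region, chr11:42392437-42392736, forward strand: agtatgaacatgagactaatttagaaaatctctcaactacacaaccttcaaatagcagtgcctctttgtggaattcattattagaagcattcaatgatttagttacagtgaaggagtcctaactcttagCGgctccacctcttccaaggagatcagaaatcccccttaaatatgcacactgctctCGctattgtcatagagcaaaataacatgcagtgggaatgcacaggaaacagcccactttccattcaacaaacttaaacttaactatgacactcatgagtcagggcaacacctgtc
This stretch holds 2 CpGs, and 86.1% of promoter windows hold as many or more.

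The gamma subunits, which anchor receptors at synapses, were thinly marked. Gabrg1 held 3, 0 and 1 H4K8ac peaks in the exercised lists and 2, 2 and 1 in the sedentary lists, of which 5 of 9 overlapped the gene, and its start site was covered in 3 lists. Gabrg3 (chr7:56716465-57387188), at 670724 bp the longest of the members, held 4, 0 and 1 in the exercised lists and 3, 4 and 0 in the sedentary lists, so that by symbol the sedentary list alone named it in the left separate arm and the exercised list alone in the right one. By position a peak of another symbol covered 1.55 kb of it in the exercised left separate list. Of its 9 H4K8ac regions 0 were in all lists and 6 were in a single list. A 2182 bp H3K27me3 peak over a Gabrg3 exon appeared in the exercised SIT list only.

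The delta, epsilon, pi and theta subunits fell on either side. Gabrd (chr4:155384980-155398112), the delta subunit, held 1, 1 and 0 H4K8ac peaks in the exercised lists and 1, 2 and 1 in the sedentary lists, of which 5 of 6 lay past the far end of the gene (chr4:155381381-155384518) and 1 over the gene. Gabrp (chr11:33550781-33578959, reverse strand), the pi subunit, known from epithelia rather than brain, had no H4K8ac peak and held 9, 7 and 6 H3K27me3 peaks in the exercised lists and 5, 6 and 8 in the sedentary lists. Of the gene, 69.8, 32.9 and 26.3% lay under H3K27me3 in the exercised lists and 23.8, 32.3 and 49.0% in the sedentary lists, with ratios of 2.93, 1.02 and 0.537 beside 1.88, 1.25 and 0.360 for the whole lists. Its start site was covered in 6 of 6 lists. The theta and epsilon subunits Gabrq and Gabre, both on the X, had no peak by symbol or position.

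The Gabrp promoter is shown as the member window under H3K27me3 in every list, with CpGs in capitals:
Gabrp promoter, chr11:33578908-33579207, reverse strand: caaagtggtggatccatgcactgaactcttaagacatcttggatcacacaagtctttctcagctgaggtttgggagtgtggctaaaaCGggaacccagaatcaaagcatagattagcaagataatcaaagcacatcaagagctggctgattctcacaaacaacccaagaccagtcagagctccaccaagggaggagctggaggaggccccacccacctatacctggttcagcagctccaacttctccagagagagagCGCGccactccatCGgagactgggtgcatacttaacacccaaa
It holds 4 CpGs at an observed over expected ratio of 0.212, where the median of the 1354 windows under H3K27me3 in all 6 lists was 0.532 and that of all windows 0.387.

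Only 18 of the 41 H3K27me3 peaks assigned to Gabrp overlapped the gene. Of its 6 regions, 4 held a peak of every list, one over the start (chr11:33574795-33588453), one over the last exons (chr11:33549637-33561272) and 2 upstream, 19.6 kb and 27.7 kb from the start (chr11:33598607-33602704 and chr11:33606691-33623354), and peaks there were annotated as exonic or intronic although they lie outside the boundaries of Gabrp. The rho subunits had few peaks. Gabrr2 held 2, 0 and 1 H4K8ac peaks in the exercised lists and 0, 0 and 1 in the sedentary lists, all outside the gene itself. Gabrr1 held a single H3K27me3 peak of 2361 bp in the sedentary right separate list, and Gabrr3 none of either mark.

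Of the GABA-B genes, Gabbr2 (chr4:46662305-46991873, reverse strand) carried peaks throughout. It encodes the subunit that couples to G proteins. It held 29, 12 and 7 H4K8ac peaks in the exercised lists and 16, 33 and 24 in the sedentary lists. Peaks covered 57.9, 22.7 and 12.01 kb in the exercised lists and 25.8, 62.2 and 57.6 kb in the sedentary lists, with ratios of 2.25, 0.365 and 0.208 beside 1.73, 0.391 and 0.437 for the whole lists. The right separate arm was where its ratio lay furthest below that of its list. The annotated start site was covered in 1 of 6 lists although its window holds 46 CpGs, a number that 1.66% of promoter windows reach. The region present in all 6 lists (chr4:46683154-46691491) lay 300.4 kb into the gene, near an inner start, and all lists shared 1268 bp of it, of which the middle 300 bases of the longest stretch are shown, with CpGs in capitals:
Gabbr2 inner region, chr4:46684243-46684542, forward strand: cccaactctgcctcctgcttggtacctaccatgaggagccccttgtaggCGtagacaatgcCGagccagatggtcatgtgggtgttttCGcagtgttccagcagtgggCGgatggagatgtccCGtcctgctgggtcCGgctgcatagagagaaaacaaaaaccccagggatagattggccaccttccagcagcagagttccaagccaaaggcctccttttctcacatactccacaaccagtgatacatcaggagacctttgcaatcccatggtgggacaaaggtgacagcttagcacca

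Gabbr1, the subunit that binds GABA, held 1, 0 and 0 H4K8ac peaks in the exercised lists and 2, 0 and 0 in the sedentary lists, all annotated as promoter peaks. Kctd12 was named in 3 lists, with 0, 0 and 1 peaks in the exercised lists and 0, 1 and 2 in the sedentary lists, but by position H4K8ac covered the gene or the 3 kb beside it in all 6, for 4.16, 1.41 and 2.78 kb in the exercised lists and 3.26, 4.53 and 4.87 kb in the sedentary lists. None of its 4 assigned peaks overlapped the gene, and the peaks over it bore another symbol. Kctd16 held 9, 8 and 7 H4K8ac peaks in the exercised lists and 17, 21 and 10 in the sedentary lists, fewer in the exercised list in each arm. By sequence covered, the exercised lists held 5.12, 12.2 and 3.84 kb and the sedentary lists 11.3, 20.1 and 3.15 kb, so its ratios of 0.453, 0.608 and 1.22 lay on the other side of 1 from the whole lists in the SIT and right separate arms. Of its 52 regions 40 were in a single list, and none was in all 6. H3K27me3 peaks of 403 and 365 bp at Kctd16 appeared in the sedentary left and right separate lists and not in the exercised ones. Only 0.0276 and 0.0367% of the peaks of those lists were as narrow.

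The glycine receptor subunits divided by mark. Glra1 (chr11:55514238-55608198, reverse strand), the alpha subunit of adult spinal cord and brainstem receptors, held 13, 6 and 4 H3K27me3 peaks in the exercised lists and 4, 6 and 9 in the sedentary lists, and no H4K8ac peak. Its start site was covered in all 6 lists, by a region (chr11:55596899-55630915) of which 10687 bp were shared by all of them. H3K27me3 covered 17.7, 11.04 and 10.3 kb of the gene in the exercised lists and 12.1, 11.2 and 14.3 kb in the sedentary lists. The ratios of covered sequence over the gene were 1.45, 0.982 and 0.722 beside 1.88, 1.25 and 0.360 for the whole lists.

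Glra3 (chr8:55940460-56130070, forward strand), another alpha subunit, held 10, 4 and 2 H3K27me3 peaks in the exercised lists and 5, 7 and 8 in the sedentary lists. The start itself was covered by H3K27me3 in 1 of 6 lists, and the mark lay on both sides of it. A region 1.68 kb upstream (chr8:55933931-55938784) held a peak of the 3 sedentary lists and of the exercised SIT list. A pair of intronic regions, 4.15 and 26.3 kb past the start (chr8:55944606-55963126 and chr8:55966796-55971917), held a peak of every list. Under peaks lay 37.3, 18.4 and 6.80 kb in the exercised lists and 18.5, 15.9 and 19.1 kb in the sedentary lists, with ratios of 2.02, 1.16 and 0.356, beside 1.88, 1.25 and 0.360 for the whole lists. A single H4K8ac peak of 639 bp was assigned to it, in the exercised SIT list.

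The start and an H3K27me3 stretch inside the gene are shown for Glra3, the promoter mostly outside and the intronic core inside the mark, with CpGs in capitals:
Glra3 promoter, chr8:55940168-55940467, forward strand: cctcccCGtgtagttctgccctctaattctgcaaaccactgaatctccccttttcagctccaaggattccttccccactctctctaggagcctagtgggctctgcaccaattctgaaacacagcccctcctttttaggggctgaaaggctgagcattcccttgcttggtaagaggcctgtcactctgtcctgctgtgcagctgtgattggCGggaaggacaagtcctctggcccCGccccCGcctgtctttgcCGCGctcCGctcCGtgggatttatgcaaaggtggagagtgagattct
Glra3 intronic region, chr8:55969162-55969461, forward strand: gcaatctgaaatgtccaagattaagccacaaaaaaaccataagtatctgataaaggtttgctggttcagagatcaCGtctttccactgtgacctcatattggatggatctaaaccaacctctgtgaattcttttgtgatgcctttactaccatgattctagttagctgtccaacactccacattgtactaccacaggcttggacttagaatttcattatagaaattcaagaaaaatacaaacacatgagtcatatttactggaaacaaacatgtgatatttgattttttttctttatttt
The promoter holds 8 CpGs at a ratio of 0.347 and the intronic stretch 1 at 0.115.

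Glrb (chr3:80843599-80913660, reverse strand), the beta subunit that ties glycine receptors to gephyrin, carried H4K8ac, unlike Glra1 and, but for 1 peak, Glra3. It held 4, 0 and 2 H4K8ac peaks in the exercised lists and 3, 3 and 3 in the sedentary lists, and its start site was covered in 5 of 6. The exception was the exercised left separate list, in which the nearest H4K8ac peak was 126 kb away. An H3K27me3 peak of 1143 bp lay upstream of it in the exercised SIT list alone. Its window is shown beside those of Gabrp and Glra3 as a CpG-rich start under H4K8ac:
Glrb promoter, chr3:80913611-80913910, reverse strand: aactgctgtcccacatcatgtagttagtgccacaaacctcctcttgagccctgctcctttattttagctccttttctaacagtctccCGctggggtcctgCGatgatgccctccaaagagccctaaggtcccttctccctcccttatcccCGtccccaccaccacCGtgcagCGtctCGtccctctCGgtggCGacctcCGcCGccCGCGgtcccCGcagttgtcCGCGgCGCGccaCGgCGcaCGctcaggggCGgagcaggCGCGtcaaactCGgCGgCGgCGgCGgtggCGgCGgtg
It holds 30 CpGs at a ratio of 0.962, which 8.26% of promoter windows reach. Glra2, the X-linked alpha subunit of the developing brain, had no peak.

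**Figure D2:**
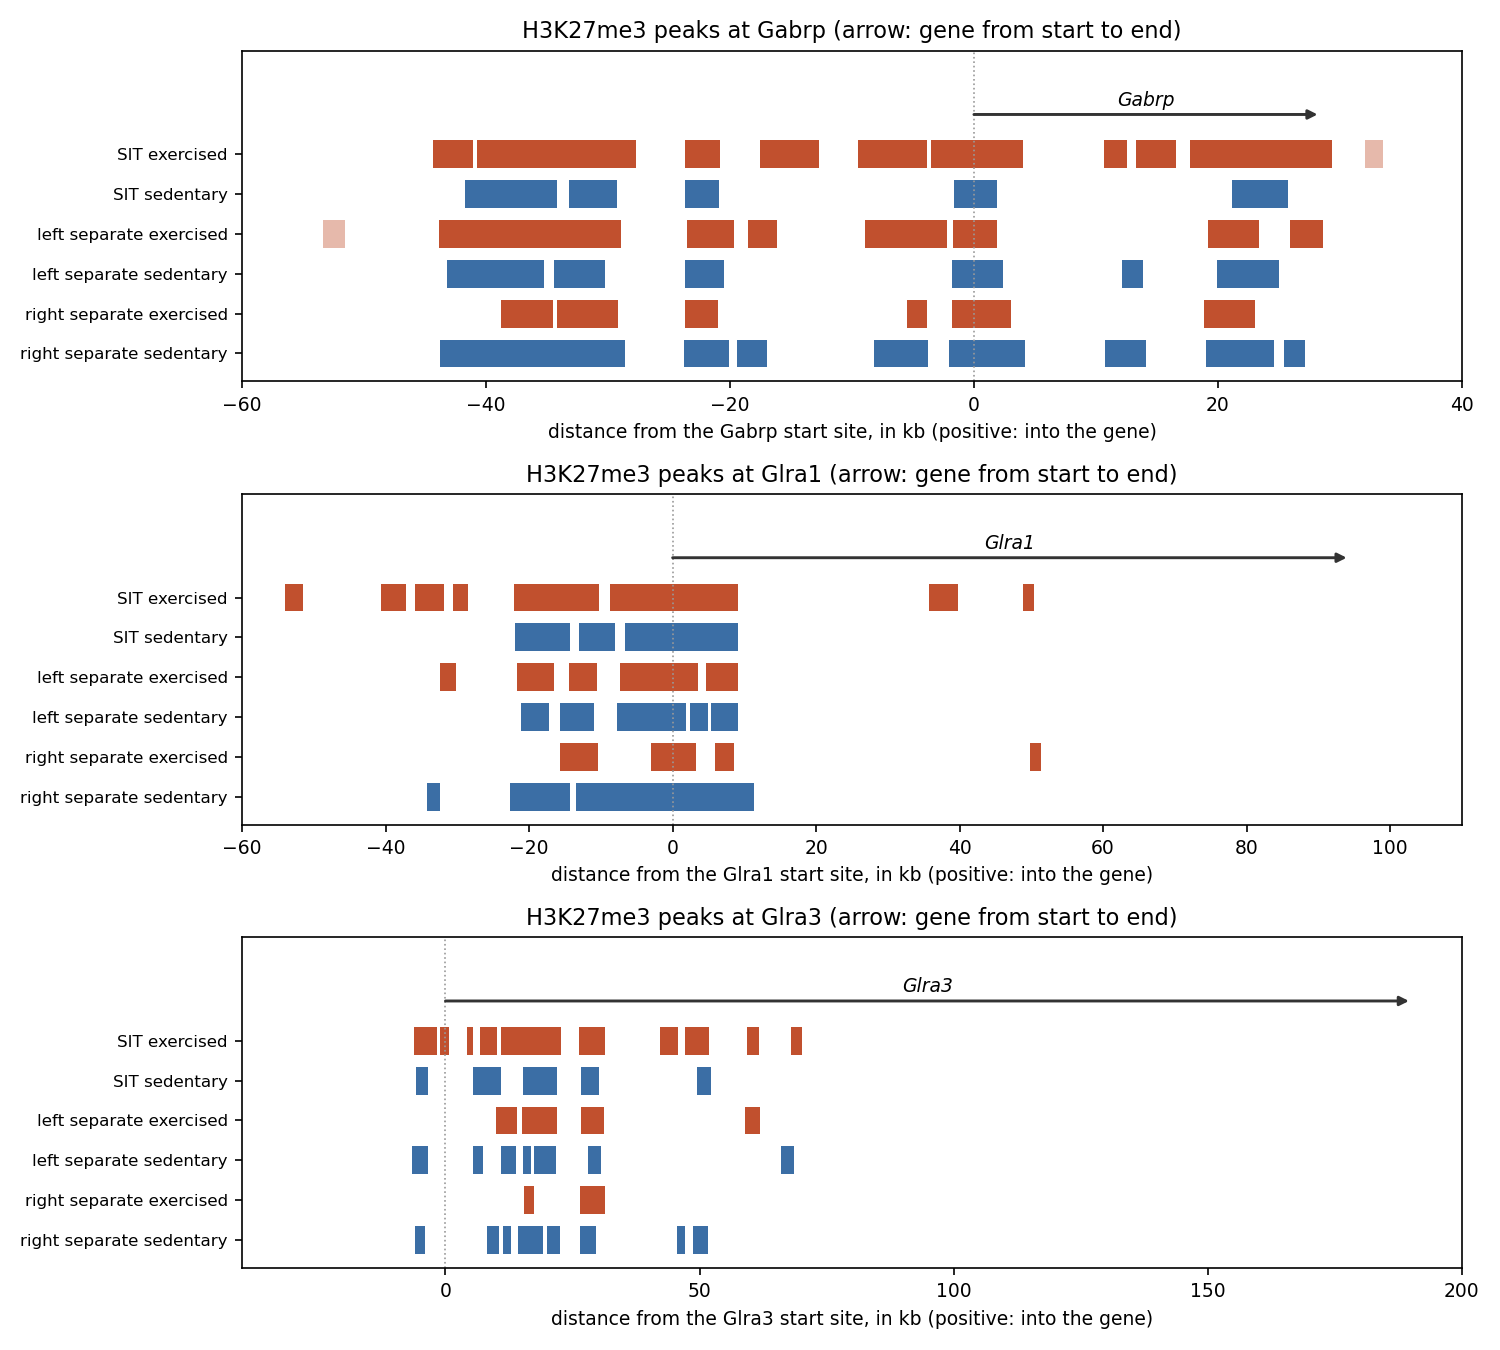
H3K27me3 peaks of the 6 lists (rows, exercised in red and sedentary in blue) around the start sites of Gabrp, Glra1 and Glra3, as distance in kb with positive values into the gene, and paler bars for peaks assigned to no member. Peaks of all 6 lists cross the start at Gabrp and Glra1, while at Glra3 1 list does, 4 have a peak upstream, and the peaks shared by all 6 lie in introns past it.

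Gphn (chr12:78226379-78684772, forward strand), encoding gephyrin, held 3, 0 and 1 H4K8ac peaks in the exercised lists and 8, 9 and 3 in the sedentary lists, fewer in the exercised list of each arm. H4K8ac over the gene ran differently, with 0, 0 and 0.783 kb in the exercised lists and 5.66, 5.08 and 0 kb in the sedentary lists. Only 8 of these 24 peaks overlapped the gene and 14 were intergenic. Its start site was never covered, although its window has the highest CpG ratio of the 29 member windows, 1.04. H3K27me3 peaks of 340, 303, 297 and 294 bp at nearly the same place in a Gphn intron appeared in the exercised SIT, exercised left separate, sedentary left separate and sedentary right separate lists. In each of these lists at most 0.0156% of peaks were as narrow. The exercised SIT list held a further peak of 2738 bp, 268 kb upstream. Gabarap, which links receptors to trafficking, had no peak.

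Chloride transporters set the direction of the GABA response: Slc12a5 (KCC2) extrudes chloride in mature neurons and Slc12a2 (NKCC1) imports it in young ones. Slc12a5 (chr2:164960802-164999731, forward strand) held 4, 2 and 1 H4K8ac peaks in the exercised lists and 1, 4 and 3 in the sedentary lists. All 15 were annotated as promoter peaks, yet none covered its annotated start, the nearest being 2.15 to 9.83 kb away. A second RefSeq window of the gene was under peaks in 3 lists. H4K8ac covered 5.56, 3.26 and 1.22 kb in the exercised lists and 1.02, 5.25 and 5.09 kb in the sedentary lists, with ratios of 5.46, 0.621 and 0.240. Slc12a2 held no H4K8ac peak in any exercised list and 2, 1 and 1 peaks in the sedentary lists, and was the only member listed in the sedentary list alone in all 3 arms, beside 0.456% of all genes. Its 4 peaks lay at 4 separate places, each in 1 list, between 978 and 2350 bp wide, so no position recurred.

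Counted by arm, more members were named in the list with more peaks for each mark and arm except H3K27me3 in the left separate arm. For H4K8ac, 16, 9 and 13 members were in the exercised lists, beside 41.5, 19.7 and 22.3% of all genes, and 15, 15 and 14 in the sedentary lists, beside 33.1, 39.7 and 31.9%. In the SIT arm Gabrr2 and Glra3 were in the exercised list alone (13.0% of all genes were) and Slc12a2 in the sedentary list alone (4.58%). In the left separate arm no member was in the exercised list alone (1.46%) and 6 were in the sedentary list alone (21.5%), namely Gabrg1, Gabrg3, Kctd12, Glrb, Gphn and Slc12a2. In the right separate arm this was so of Gabrg3 for the exercised list (3.26%) and of Gabrd and Slc12a2 for the sedentary list (12.8%). The 6 of 28 in the left separate arm is near the share over all genes.

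For H3K27me3, 6, 4 and 3 members were in the exercised lists, beside 24.7, 19.9 and 13.4%, and 3, 5 and 6 in the sedentary lists, beside 14.7, 17.9 and 23.2%. Gabrg3, Glrb and Gphn were in the exercised list alone in the SIT arm (10.3%), and no member in the sedentary list alone (0.244%). In the left separate arm none was in the exercised list alone (4.04%) and Kctd16 was in the sedentary list alone (2.01%). In the right separate arm none was in the exercised list alone (0.686%), and Gabrr1, Kctd16 and Gphn were in the sedentary list alone (10.5%). Gabrp, Glra1 and Glra3 were in both lists of every arm.

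Summed over the 28 genes with 3 kb on either side, H4K8ac covered 284, 151 and 115 kb in the exercised lists and 186, 294 and 229 kb in the sedentary lists. The ratios were 1.52, 0.515 and 0.501, beside 1.73, 0.391 and 0.437 for the whole lists, so the members' ratio lay nearer to 1 than that of the list in each arm. H3K27me3 covered 81.4, 42.9 and 26.1 kb in the exercised lists and 41.3, 41.3 and 53.2 kb in the sedentary lists, with ratios of 1.97, 1.04 and 0.491 beside 1.88, 1.25 and 0.360. No test could be made of these differences.

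**Figure D3:**
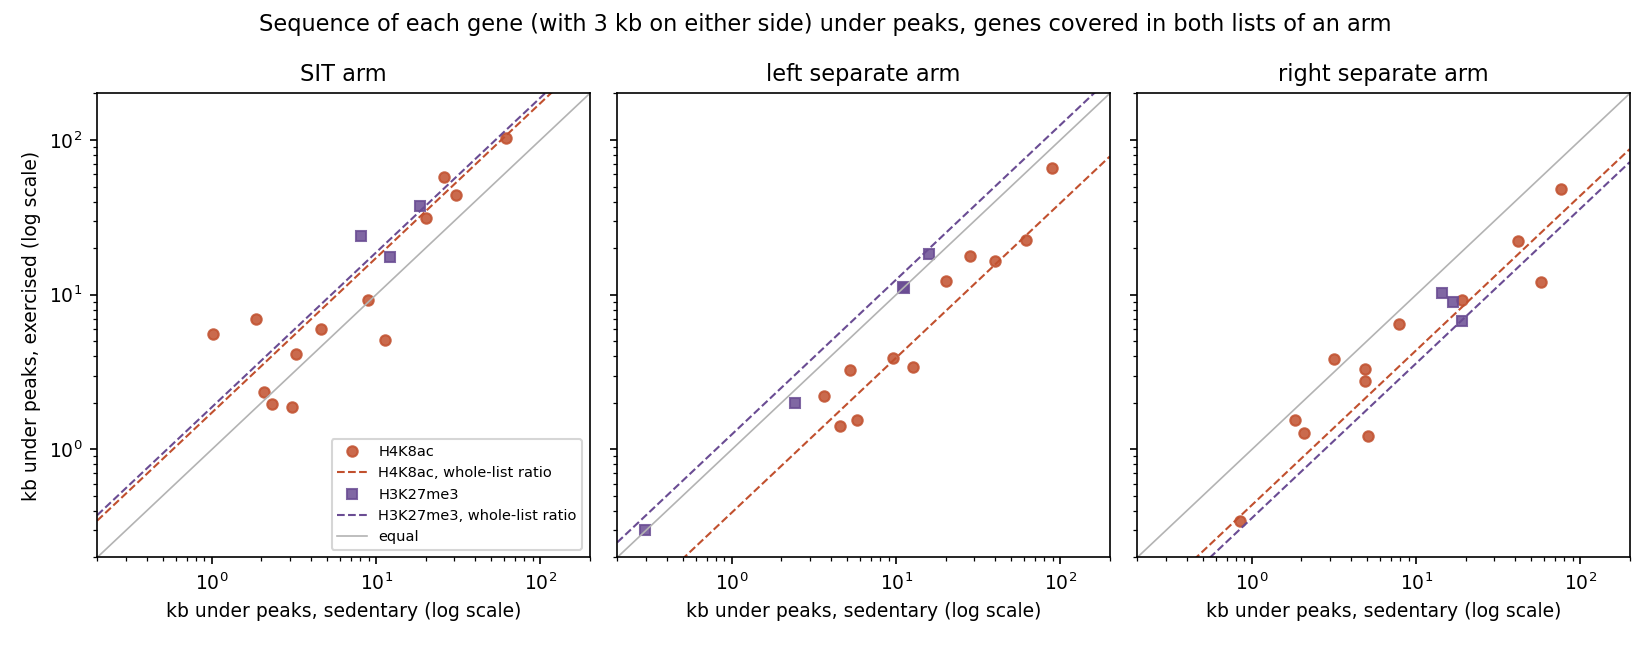
Sequence of each gene under peaks (kb, log scales), sedentary on the x axis and exercised on the y axis, for the genes covered in both lists of an arm, with 1 panel per arm. Dashed lines give the ratio of the whole lists and the grey line equality, and H4K8ac points lie mostly above equality in the SIT arm and below it in both separate arms, as the lists do.

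Shares of positions found in the other condition were mostly close to those of all peaks, with lower values for exercised left separate and sedentary SIT H4K8ac peaks and for sedentary left separate H3K27me3 peaks. Of exercised H4K8ac peaks at the genes, 43.8, 60.7 and 65.0% overlapped a sedentary peak of the arm by at least 1 bp, beside 43.9, 73.1 and 68.0% of all peaks. Sedentary H4K8ac peaks overlapped an exercised peak in 48.8, 22.8 and 37.9% of cases, beside 59.0, 25.2 and 35.6%. For H3K27me3 the shares were 36.1, 66.7 and 91.7% of exercised peaks, beside 37.2, 61.4 and 94.7%, while 14 of 14, 15 of 21 and 10 of 28 sedentary peaks overlapped an exercised one, beside 98.1, 82.1 and 31.6% of all peaks. Where at least 50% of a peak had to be covered, the members' share was 26.2% for exercised SIT H4K8ac, 24.3% for sedentary right separate H4K8ac and 21.4% for sedentary right separate H3K27me3, and the other shares stayed within 1.5 times those given. Of 270 H4K8ac regions at the genes, 15 (5.56%) held a peak of all 6 lists, beside 5.99% of all regions, and 157 (58.1%) were in a single list, beside 49.9%. Of 31 H3K27me3 regions, 7 (22.6%) were in all 6 lists, beside 16.7%.

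Receptor genes lie in clusters, and the clusters differed in marking. Gabrg1, Gabra2, Gabra4 and Gabrb1 stand together on chromosome 5, in a span of 1404 kb. H4K8ac covered 13.5, 6.60 and 6.25% of the span in the exercised lists and 9.16, 11.8 and 11.3% in the sedentary lists, and no H3K27me3 peak of any list touched it. The exercised over sedentary ratios were 1.47, 0.558 and 0.552. The whole lists had ratios of 1.73, 0.391 and 0.437.

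**Figure D4:**
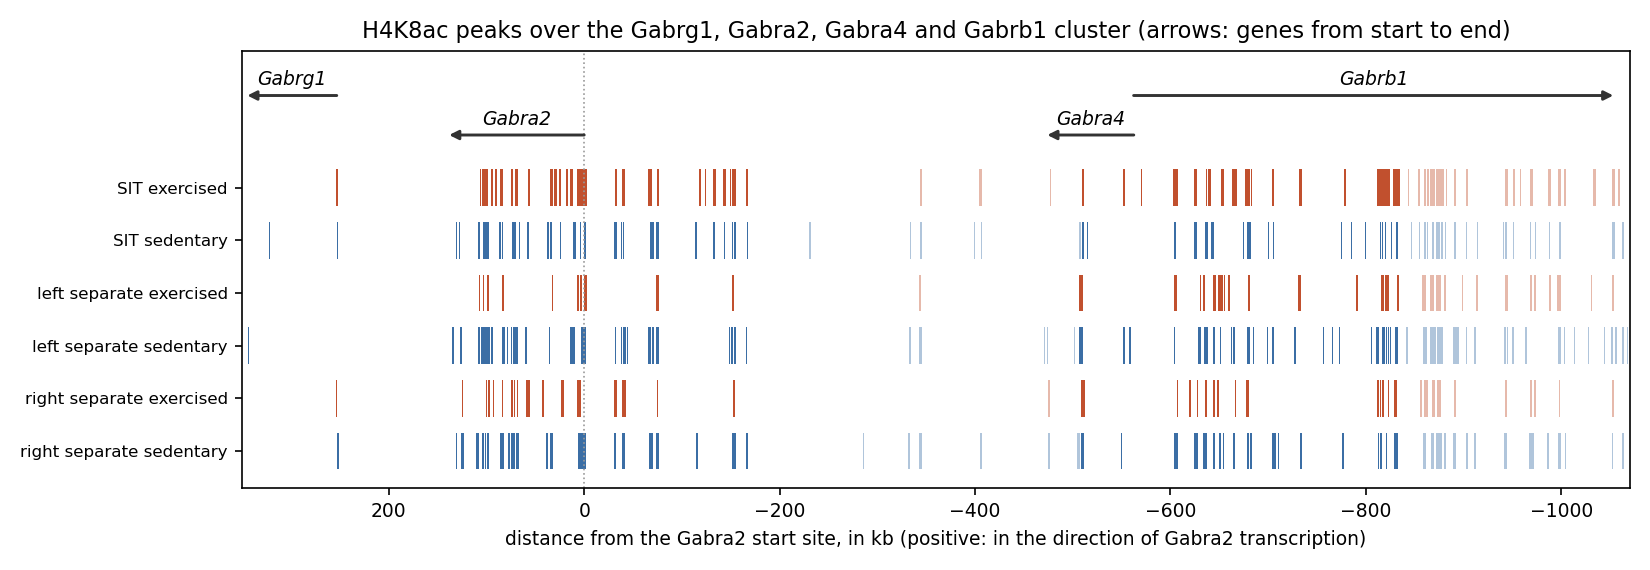
H4K8ac peaks of the 6 lists (rows, exercised in red and sedentary in blue) across the cluster of Gabrg1, Gabra2, Gabra4 and Gabrb1, as distance in kb from the Gabra2 start site, with arrows for genes and paler bars for peaks assigned to no member. Peaks gather over Gabra2 and the sequence upstream of it and over Gabrb1, and few lie at Gabrg1 or at the neighbouring starts of Gabra4 and Gabrb1.

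Gabrb2 and Gabra6, on chromosome 11, showed the split within a cluster: Gabrb2 was in every H4K8ac list and Gabra6 in none. On chromosome 7, Gabrg3 and Gabra5 share a span of which H4K8ac covered 1.32, 0.620 and 0.425% in the exercised lists and 1.11, 2.29 and 0.228% in the sedentary lists. Gabrr2 and Gabrr1, neighbours on chromosome 4, held an H4K8ac peak in 3 lists and an H3K27me3 peak in 1. The X-linked cluster of Gabre, Gabra3 and Gabrq had no H4K8ac peak, and 1 H3K27me3 peak in each of 3 lists, within Gabra3.

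Promoter sequence and marking were set side by side for the 24 members with a RefSeq window, which have 29 windows in all. Gabrd, Glra1, Kctd16 and Slc12a2 have none in the table used. H4K8ac lay over 12 of the 29 windows in at least 1 list, beside 26.6% of all windows, and H3K27me3 over 2, beside 12.7%. The 12 windows had a median observed over expected CpG of 0.557 and the other 17 of 0.529, where all windows with and without H4K8ac had medians of 0.679 and 0.298. CpG-rich starts without H4K8ac included those of Gphn (42 CpGs), Gabre (24), Gabrq (23) and the outer Gabrb1 window (25), and Gabrg1 had H4K8ac in 3 lists with 3 CpGs. Searched on both strands, the cyclic AMP response element TGACGTCA was in 0 of 29 windows, beside 1.803% of all windows, and the E-box CAGATG in 2, beside 17.1%, in windows of Gabra5 and Gabrr1. TATAAA was in 4 windows, of Gabrb2, Gabra3 and Glra2, beside 13.7%.

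**Figure D5:**
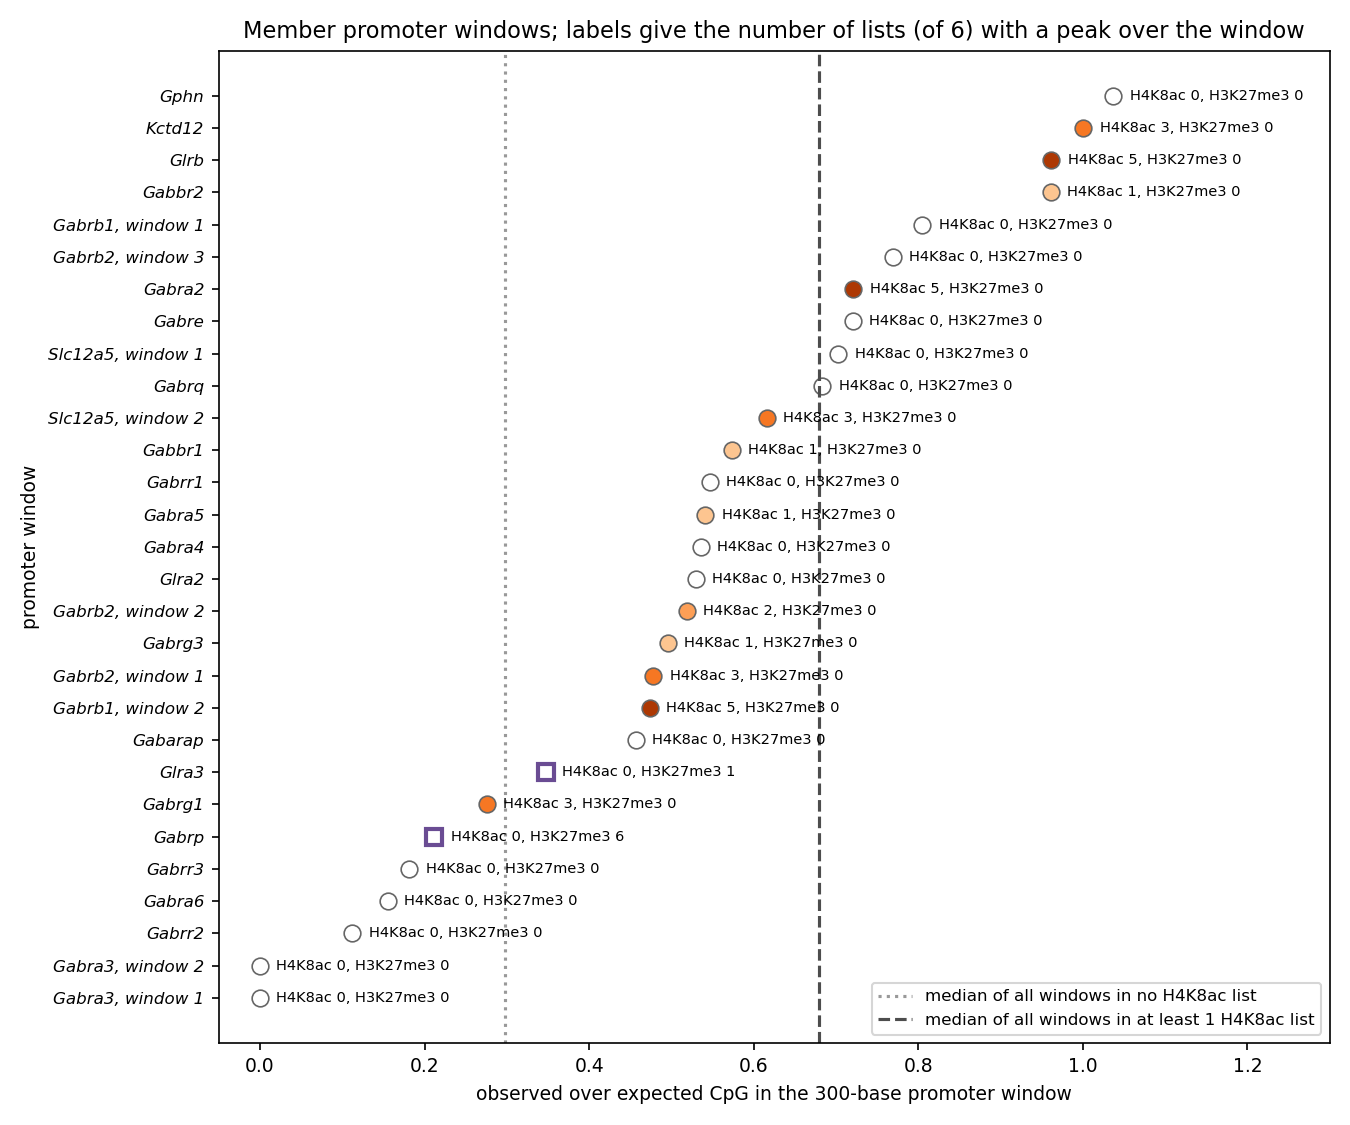
Observed over expected CpG in the 29 RefSeq promoter windows of the members (x axis, 1 row per window), with darker fill for more H4K8ac lists and a purple square for windows under H3K27me3. Windows under H4K8ac spread from 0.276 (Gabrg1) to 1.001 (Kctd12), and the 2 windows under H3K27me3, of Gabrp and Glra3, lie at 0.212 and 0.347.

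Other genes of inhibitory signalling gave a comparison from a list of 22, which holds enzymes and transporters of GABA and glycine, further scaffolds and relatives of the members. H4K8ac was in at least 1 list for 16 of 22, beside 52.5% of all genes. H3K27me3 was in at least 1 list for 10, beside 28.3%, and in all 6 for 5, beside 10.8%: Gad2, which makes GABA, the transporters Slc6a13 and Slc6a5, the GABA-degrading enzyme Abat, and Slc12a7. In the H4K8ac lists, 6, 1 and 2 were in the exercised list alone, beside 13.0, 1.46 and 3.26% of all genes, and 1, 7 and 4 in the sedentary list alone, beside 4.58, 21.5 and 12.8%. For H3K27me3 these counts were 1, 1 and 1 in the exercised list alone, beside 10.3, 4.04 and 0.686%, and 0, 0 and 2 in the sedentary list alone, beside 0.244, 2.01 and 10.5%. Both marks were held by 6 of the 22, beside 15.3% of all genes: Gad1, Abat, Kctd8, Slc12a7, Shmt2 and Gldc. Abat had 1, 1 and 1 H4K8ac peaks in the exercised lists and 1, 0 and 1 in the sedentary lists. It had 5, 7 and 6 H3K27me3 peaks in the exercised lists and 5, 8 and 8 in the sedentary lists.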

How the data were processed

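For CUT&RUN-seq of H4K8ac and H3K27me3, the 12 deposited lists of annotated peaks were used, made from the non-IgG samples among 60 (20 are IgG controls, not analysed here). The study's reporting summary also names sequence reads and signal tracks of single libraries, which were not used here. Per the labels and the methods, the authors checked reads with FastQC 0.11.9, aligned them to GRCm38 (mm10) with Bowtie2 2.4.1, called peaks with SEACR (stringent, 0.01), annotated them with ChIPseeker 1.8.6 (promoter: 3 kb on either side of a start site) and added symbols with biomaRt. How the libraries of a group were combined is not given in the sources used here. The columns of the lists hold positions, widths and distances in bp, with no signal, count or p-value, so a peak is present or absent. Calling depends on the depth of each library, for which the sources used here give only a minimum.

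From these lists, peaks were counted by symbol, and the sequence covered was measured over each gene with 3 kb on either side (GENCODE M21, protein-coding genes as background). Gained and lost mean listed in the exercised or the sedentary list alone. Regions are overlapping peaks of the 6 lists of a mark, joined. Promoter sequences are those of RefSeq (GRCm38.p6). Each list is 1 unit, so no test was made. Calculations used Python 3.11.15, numpy 2.4.6 and pandas 2.3.3, and the interval code was tested on simulated data. All 28 members are named, with values in every list for those with both marks, a peak in all 6 lists of a mark, the same gain or loss in at least 2 arms, or a place in a gene cluster (members under 1 Mb apart). The members and lists were chosen with earlier results of these data known. Alternatives were promoter peaks alone, no distal peaks, at least 2 peaks, the widest 50% of a list, peaks over the gene or its start, equal numbers of peaks and an overlap of 50%. An alternative with peaks of at least 500 bp alone was added after seeing the data. Results that need items withheld for evaluation are not reported here.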

Additional observations from a re-analysis of the deposited data

Results flagged for a closer look

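A pair of genes was named in the exercised list alone in one arm and in the sedentary list alone in another, and neither difference was tested. Numbers of peaks ran in opposite directions between arms for other members too, Gabbr2, Gabrb1, Gabra4, Slc12a5, Gabrp and Glra3 among them, all named in both lists of every arm. For H4K8ac at Gabrg3, exercised minus sedentary peaks came to -4 among left separate lists and to 1 among right separate lists. For H3K27me3 at Gphn the difference was 2 in the SIT arm and -1 between the right separate lists, where the peak that the exercised list lacked was the narrow intronic one, of 294 to 340 bp, that 4 of the 6 lists held. Each value rests on 1 pooled list per condition.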

How the results depend on the processing

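Of 42 alternative counts of members listed, exercised minus sedentary, 17 stayed within 1.5 times the reported value, 24 moved and 1 turned: the H4K8ac difference in the right separate arm was -1 as reported and 3 with equal numbers of peaks taken by width. With equal numbers of peaks the difference was 0 for H4K8ac in the SIT arm and -2 in the left separate arm (reported 1 and -6), and for H3K27me3 it was 0, -2 and 0 in the SIT, left and right separate arms (reported 3, -1 and -3). Without distal peaks the H4K8ac difference was 0 in the SIT and right separate arms. It was 0 in the SIT arm for peaks over the start site, and in the right separate arm -4 for at least 2 peaks, -2 for the widest 50% of each list and 0 for peaks over the gene. For H3K27me3 in the SIT arm it was 1 for promoter peaks, at least 2 peaks, peaks over the gene and peaks over the start site, and 0 for the widest 50%. In both separate arms it was 0 for promoter peaks, at least 2 peaks, the widest 50% and peaks over the start site. The cause was not tested. The share of background genes with H4K8ac was 52.5%, and 84.7% among genes of at least 100 kb. Leaving out replicates was not possible in pooled lists. No paired analysis was possible from the lists, because each pools the libraries of its group and carries no replicate values.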
